A study of Mus musculus with 12 samples.

Results

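The cytosolic ribosomal protein genes encode the proteins of the large (60S) and the small (40S) ribosomal subunit. They were chosen as the protein-coding genes whose mouse symbol starts with Rpl or Rps and a digit or with Rplp, together with Rpsa and without the Rps6k kinases, that had at least 10 counts in at least 4 of the 12 libraries. This took in 90 of the 57180 genes counted. Poly(A) RNA was sequenced from whole kidneys of male C57BL/6J mice that were 60 days old at the start. The 4 mice of the Control group received daily intraperitoneal injections of saline with Tween 80 for 28 days. The 4 mice of the 10CBD group received the same vehicle with cannabidiol (CBD) at 10 mg/kg b.w., and the 4 mice of the 20CBD group received it with CBD at 20 mg/kg b.w. The design asks whether the dose of CBD altered transcription in the kidney, and the vehicle was common to all 3 groups.

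Ribosomal proteins fold onto the ribosomal RNAs in the nucleolus to form both subunits, so that cells need them in matched amounts. Their mRNAs start with a short run of pyrimidines after a cytosine, the 5′ terminal oligopyrimidine (TOP) motif, through which mTORC1 and the RNA-binding protein LARP1 control their translation. In the kidney, the ribosome content of the tubule cells follows growth, nutrition and hormone signals.

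Of the 90 genes, 77 encode the standard proteins, 46 of the 60S and 31 of the 40S subunit. A further 6 are paralogs (Rpl3l, Rpl7l1, Rpl22l1, Rpl36al, Rps27l and Rps4l), and 6 are retrocopies annotated as protein-coding (Rpl10-ps3, Rpl9-ps6, Rpl27rt, Rpl35rt, Rps27rt and Rps23rg1). The last, Rps19bp1, encodes a protein that binds Rps19 and is no ribosomal protein, although the symbol rule takes it in. The genes lie on 20 chromosomes, and their coding sequences run from 75 nt to 1257 nt with a median of 454.5 nt. The minimum left out 5 further genes. Of these, Rpl10l, Rpl39l, Rps18-ps6 and Rplp2-ps1 had 0 counts in every library, where 3 counts would be a level of 0.195 CPM (counts per 1000000 counts on genes) in the smallest library, and Rplp1rt had at most 1 count. All 90 genes passed the filter on low counts of the test, and each had a count in every library.

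The sequences around the start of transcription are shown first because the TOP motif is read there. They were taken from RefSeq (GRCm38.p6), which gave windows for 65 of the 90 genes, and run from 30 bases before to 25 bases after an annotated start. Capitals mark the longest run that begins with C and goes on with at least 4 further C or T, searched on the strand of the gene within 5 bases of that start. The first 6 hold such a run and the last 2 do not:
Rps27 at chr3:90213624-90213678, minus strand: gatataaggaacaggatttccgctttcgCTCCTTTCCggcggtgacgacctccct
Rps6 at chr4:86857343-86857397, minus strand: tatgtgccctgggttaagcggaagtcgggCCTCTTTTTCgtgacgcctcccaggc
Rpl28 at chr7:4792935-4792989, plus strand: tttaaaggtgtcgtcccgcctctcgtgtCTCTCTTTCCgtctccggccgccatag
Rplp2 at chr7:141447621-141447675, plus strand: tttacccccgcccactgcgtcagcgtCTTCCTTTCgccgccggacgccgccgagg
Rps10 at chr17:27635220-27635274, minus strand: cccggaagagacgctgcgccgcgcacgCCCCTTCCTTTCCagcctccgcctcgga
Rps27rt at chr9:114982715-114982769, minus strand: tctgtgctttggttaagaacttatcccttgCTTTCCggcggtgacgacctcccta
Rpsa at chr9:120127736-120127790, plus strand: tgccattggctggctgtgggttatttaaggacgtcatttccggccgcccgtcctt
Rps4x at chrX:102189367-102189421, minus strand: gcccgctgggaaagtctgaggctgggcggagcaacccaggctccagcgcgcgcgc

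A run of this kind lay within 5 bases of the start in 33 of 77 windows of the 90 genes (42.86%) and in 18.29% of 32774 windows of other genes. Read from the annotated base on, such a run was present in 14 windows (18.18%), against 2.47% elsewhere. In some of these, such as Rps27 and Rpl28, the run extended upstream of that base. Windows without a run say only that these letters are not near that annotated base. The windows of Rps27 and of its retrocopy Rps27rt share the 24 bases ctttccggcggtgacgacctccct, which begin in the capitals of both, whereas the bases upstream differ. Over the groups, 31 genes had a run and 34 had a window without one, and their values are compared below.

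Sequence shared with other loci bears on every value given here. Of the 90 genes, 84 had at least 1 near-identical copy elsewhere in GRCm39, counted at 95% identity over 70% of the coding sequence. The median was 6 copies, and Rpl21 had the most with 57. Reads that fit several loci were not counted, so the levels of the genes with copies, retrocopies included, are uncertain. At least 25% of the coding sequence also lay in exons of another gene on the same strand in 4 genes, at 97.54% in Rpl13a, 95.28% in Rpl36al, 92.12% in Rps10 and 83.44% in Rpl24. Their mean counts were 218.1, 205.8, 86.9 and 10.6 per library. Per kb of coding sequence, Rpl24 (1.18 CPM), Rps10 (8.94 CPM) and Rpl13a (18.7 CPM) were the lowest of the 77 standard genes. The overlapping gene held a mean of 0 counts in each case, and how much of their level was lost to ambiguous reads was not tested. Antisense exons covered at least 25% of the coding sequence of 8 genes, among them Rpl28 (100%, Ube2s) and Rpl23a (55.34%, Tlcd1), and the strand setting of the counting is not given in the sources used here.

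The libraries held between 15417867 and 23532088 counts on genes. Counts of mitochondrially encoded genes took from 3.53% to 23.4% of a library, and 4 libraries lay under 10% (mouse 2 of Control, mice 1 and 3 of 10CBD and mouse 3 of 20CBD). The last 3 of these also kept fewer reads than the others in the mapping statistics of the study. The 7 proximal tubule markers, which stand for the most frequent kidney cell, were all present, and their summed level was 8980 to 10763 CPM in Control, 7616 to 9551 CPM in 10CBD and 6839 to 7999 CPM in 20CBD. These sums, and those of the adipocyte markers below, are per 1000000 counts on all genes, mitochondrially encoded ones included, without TMM scaling. On that scale, the level in 20CBD was below every Control mouse, and its part in the ribosomal protein values was not tested. In 10CBD against Control, 2 of the 7 had log2 fold changes above 0 and 5 below. In 20CBD against Control, 1 lay above 0 and 6 below. Of the 7, edgeR called 0 in 10CBD and 1 in 20CBD, beside 0.0291% and 0.303% of all genes. None of the markers of the other 11 cell types checked was at 0. The 5 adipocyte markers summed to 114 to 348, 89.7 to 180 and 76.3 to 122 CPM in the same order, with overlap of the groups. All 5 had log2 fold changes below 0 at both doses against Control. Of these, edgeR called 0 in 10CBD and 1 in 20CBD, beside 0.0291% and 0.303% of all genes. In RNA of a whole organ, fewer cells of a type and less RNA per cell cannot be told apart.

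The 90 genes together took overlapping shares of the counts in the 3 groups. The share was 1.99%, 1.92%, 1.71% and 1.75% in the Control mice, 2.23%, 1.52%, 1.95% and 1.78% in the 10CBD mice and 1.72%, 1.66%, 2.68% and 2.03% in the 20CBD mice. The group means were 1.84% ± 0.13, 1.87% ± 0.30 and 2.02% ± 0.47 (SD, n = 4). The groups overlapped, and the mice of highest and lowest share both had received CBD. Counting error was small beside these differences, since the 95% binomial interval (exact) of the lowest share ran from 1.518% to 1.531%, which covers counting error only. The difference of 20CBD from Control, 0.180 percentage points, became -0.0378 without mouse 3 of 20CBD, and that from 10CBD, 0.151, became -0.0672. After removal of mitochondrially encoded and ribosomal RNA genes from the totals, the means were 2.27% ± 0.13, 2.24% ± 0.22 and 2.56% ± 0.35, again with overlap.

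**Figure D1:**
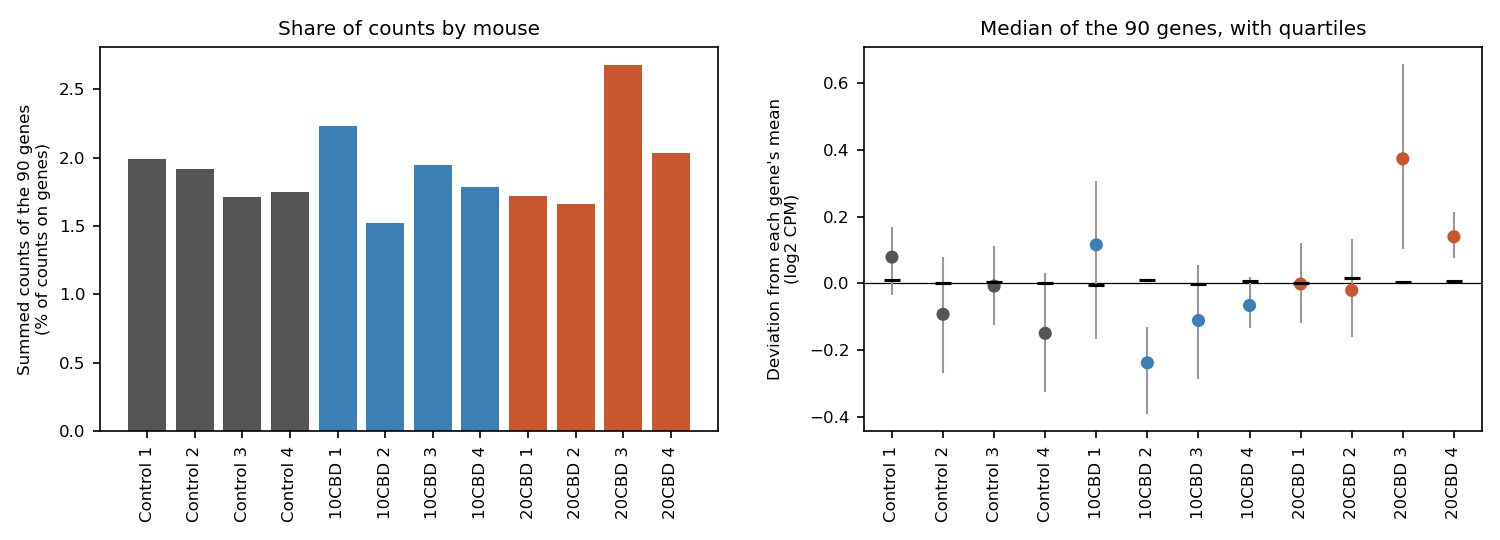
Left, summed counts of the 90 genes as a percentage of the counts on genes in each of the 12 mice. Right, for each mouse the median (point) and quartiles (line) over the 90 genes of the deviation of log2 CPM from each gene's mean over 12 mice, with the median of all genes tested as a short bar. Mouse 3 of 20CBD stands highest in both, at 2.68% and 0.37, and mouse 2 of 10CBD lowest, at 1.52% and -0.24.

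Levels differed widely among the 90 genes. The median gene had 193 CPM, more than 95.79% of the 17163 genes tested, whatever their length. Per kb of coding sequence, the mean level over the 12 mice ran from 1.18 CPM for Rpl24 to 3748 CPM for Rpl41, whose protein is the smallest of the ribosome, with a median of 425 CPM. Over the 77 standard genes, the level at the 90th percentile was 5.55 times that at the 10th. Per kb of transcript, the 5 highest levels were 1043 CPM for Rps24, 944 CPM for Rps15, 860 CPM for Rplp1, 841 CPM for Rpl26 and 813 CPM for Rplp2. Per kb of coding sequence, the same 5 had 1252, 1183, 1376, 1081 and 999 CPM. The orders differ with the lengths used, because some reference transcripts are far longer than their coding sequence (Rpl37, 6111 nt beside 291 nt). Paralogs are ranked below against their counterparts on the coding scale. Values by mouse and group means are in CPM, not divided by length.

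No ribosomal protein gene passed the test in any comparison. With edgeR's quasi-likelihood test at a Benjamini-Hochberg adjusted p under 0.1, 0 of the 90 genes were called in 10CBD against Control, where 0.0291% of all genes were, 0 in 20CBD against Control (0.303% of all genes) and 0 in 20CBD against 10CBD (0.00% of all genes). DESeq2 also called 0 of the 90 in each, against 0.188%, 1.07% and 0.101% of all genes. At an unadjusted p under 0.05, edgeR gave 2, 7 and 19 of the 90 genes, against 5.67%, 8.45% and 6.31% of all genes. The 2 in 10CBD against Control were Rpl36al, higher, and Rpl7a, lower, where 3.33% and 2.34% of all genes were higher and lower at that p. All 7 and all 19 were higher in 20CBD, where 4.92% and 3.47% of all genes were higher and 3.53% and 2.84% lower. Leaving out each library in turn moved the counts of 2, 7 and 19 to between 1 and 9, 2 and 10, and 11 and 22. Without mouse 3 of 20CBD, they were 4, 2 and 15 of the 90 genes, beside 1287, 1179 and 1281 of 17501 genes. The 3 comparisons share groups: both doses are set against the same Control mice, and the same 20CBD mice enter the second and the third.

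Short of that threshold, most of the genes had small positive log2 fold changes in 20CBD, and their size moved with the libraries used. The log2 fold change was above 0 for 39 of 90 genes in 10CBD against Control, for 80 of 90 in 20CBD against Control and for 78 of 90 in 20CBD against 10CBD, where 52.3%, 52.5% and 49.4% of all genes were. The median log2 fold changes were -0.04, 0.19 and 0.19, beside 0.01, 0.01 and -0.00 for all genes, and the median SE of a single gene was 0.17. Without mouse 3 of 20CBD, the median became 0.06 with 65 genes above 0 against Control, and 0.10 with 61 genes above 0 against 10CBD. The median of 10CBD against Control changed sign without mouse 2 of 10CBD (0.01) and reached -0.10 without mouse 1. Without the 4 libraries of low mitochondrial share (mouse 3 of 20CBD among them), a choice made after seeing the data, the medians were -0.14, 0.08 and 0.20 with 9, 67 and 88 genes above 0, and edgeR again called 0 of the 90. With low read retention as a factor, they were -0.15, 0.08 and 0.25 with 16, 64 and 84 genes above 0.

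**Figure D2:**
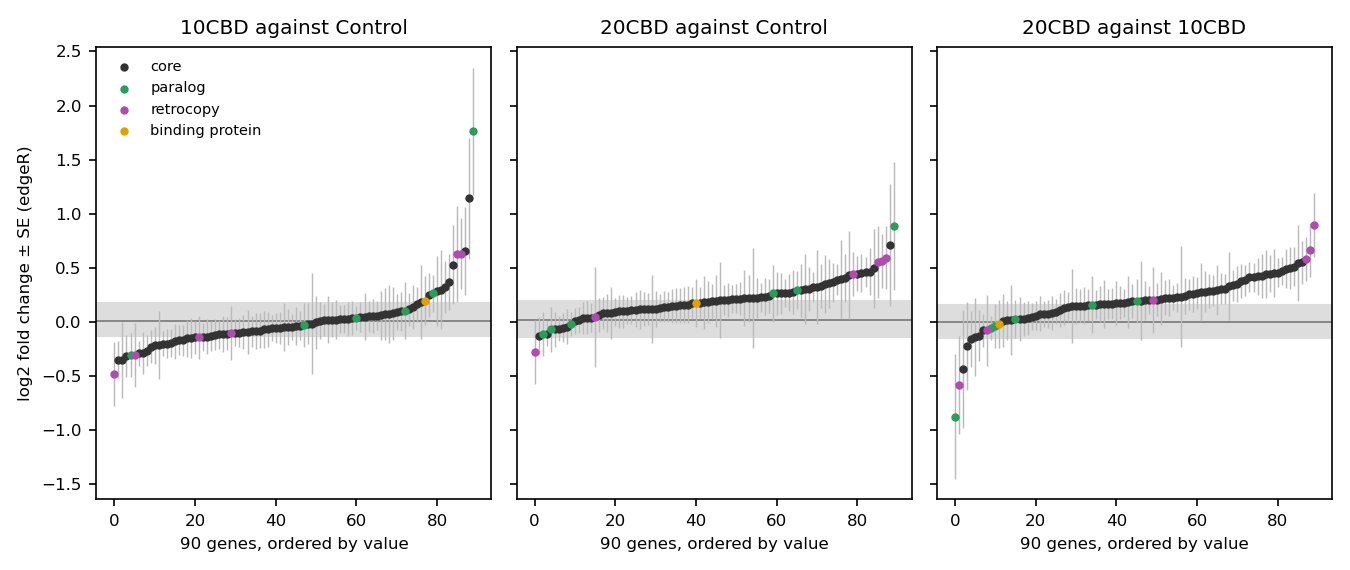
Log2 fold change ± SE from edgeR of each of the 90 genes in the 3 comparisons, ordered by value and coloured by kind of gene, with the median (line) and quartiles (band) of all 17163 genes tested. In both comparisons of 20CBD most points lie above 0 (80 and 78 of 90), whereas in 10CBD against Control 39 do.

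By subunit, in 20CBD against Control, the median was 0.21 over the 46 genes of the 60S subunit, of which 42 lay above 0, and 0.18 over the 31 genes of the 40S subunit, of which 29 did. The 31 genes with a pyrimidine run near the start had medians of -0.07, 0.20 and 0.24 in the 3 comparisons, and the 34 genes with a window but no run had -0.02, 0.14 and 0.16. The differences between these lists were not tested. Among the genes with neither kind of shared coding sequence, 79 in all, the medians were -0.03, 0.18 and 0.18. Short protein-coding genes outside the group (210 genes, transcripts of 1000 nt or less) had medians of -0.01, 0.14 and 0.15. Across the 90 genes, Spearman's rho of the log2 fold change in 20CBD against Control was -0.33 with coding length and 0.33 with the GC content of the coding sequence, as a description over genes that share 8 libraries.

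Several small 40S proteins gave the clearest separation of 20CBD from Control. Rps27 (chr3:90119819-90120977 in GRCm39), a zinc-finger protein of the 40S subunit, had 90.7, 68.8, 94.0 and 70.9 CPM in the Control mice, 75.2, 77.8, 79.5 and 103 CPM in the 10CBD mice and 104, 117, 122 and 105 CPM in the 20CBD mice. Every 20CBD mouse lay above every mouse of the other groups. The log2 fold change was 0.46 (SE 0.14) against Control and 0.41 (SE 0.14) against 10CBD, with adjusted p-values of 0.349 and 0.758 by edgeR, and the exact permutation p was 0.0286 in each, the smallest that 4 mice against 4 allow. Rps27 has 5 near-identical copies in the genome.

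Rps29 (chr12:69204495-69205960), a small zinc-binding protein of the 40S head, had 131, 117, 119 and 95.3 CPM in Control, 142, 97.5, 113 and 141 CPM in 10CBD and 144, 136, 207 and 143 CPM in 20CBD. The 20CBD mice were all above Control but overlapped with 10CBD, and mouse 3 stood far above the other 3. The log2 fold change against Control was 0.45 (SE 0.16, adjusted p = 0.467 by edgeR). Rps26 (chr10:128460395-128462636), which lies at the mRNA exit channel of the 40S subunit, had 234, 227, 243 and 232 CPM in Control, 249, 190, 282 and 248 CPM in 10CBD and 265, 268, 372 and 321 CPM in 20CBD. The Control mice were close together (SD 6.73 CPM), and all 20CBD mice exceeded them, for a log2 fold change of 0.39 (SE 0.14, adjusted p = 0.470 by edgeR).

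In the 60S subunit, Rpl39 (chrX:36345092-36349130), a small protein at the wall of the peptide exit tunnel, had 70.3, 51.9, 67.1 and 44.8 CPM in Control, 46.5, 60.4, 47.1 and 74.1 CPM in 10CBD and 91.2, 70.5, 86.4 and 73.0 CPM in 20CBD. Its lowest 20CBD mouse was just above the highest Control mouse, and the log2 fold change was 0.46 (SE 0.18, adjusted p = 0.501 by edgeR).

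Rpl28 (chr7:4795873-4799713), the gene with antisense exons over its whole coding sequence, had 187, 154, 198 and 161 CPM in Control, 134, 153, 139 and 185 CPM in 10CBD and 199, 222, 210 and 214 CPM in 20CBD. All 20CBD mice were above all others, with a log2 fold change of 0.27 against Control and 0.47 against 10CBD (SE 0.13 in each, adjusted p = 0.597 and 0.758 by edgeR). These genes and Rpl14 were among 7 for which every 20CBD mouse exceeded every Control mouse, beside 2.67% of all genes, and for no gene were all 20CBD mice below Control (2.63% of all genes). Against 10CBD, 8 genes were higher without overlap, among them Rpl28, Rps27, Rpl29, Rps23, Rpl23a and Rps19, beside 1.70% of all genes, and 0 were lower (1.40% of all genes). Rps26, Rps29, Rpl28, Rpl14, Rpl23a, Rpl29 and Rps23 were singled out after their values were seen.

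At the lower dose a single gene separated. Rpl7a (chr2:26800744-26803335), a 60S protein with 32 near-identical copies, had 394, 351, 397 and 361 CPM in Control, 295, 321, 279 and 338 CPM in 10CBD and 331, 343, 384 and 382 CPM in 20CBD. All 10CBD mice were below all Control mice, whereas the 20CBD mice overlapped with both. The log2 fold change in 10CBD against Control was -0.29 (SE 0.12, adjusted p = 0.812 by edgeR, exact permutation p = 0.0286). It was the only one of the 90 genes to separate in that comparison, in which 1.64% of all genes were lower and 1.55% higher in every 10CBD mouse.

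The lateral stalk of the 60S subunit, which recruits the elongation factors, consists of Rplp0 with pairs of Rplp1 and Rplp2, and its genes differed more between mice than between groups. Rplp2 (chr7:141027274-141034167) had 278, 360, 211 and 204 CPM in Control, 763, 189, 465 and 241 CPM in 10CBD and 208, 216, 626 and 375 CPM in 20CBD. Rplp1 (chr9:61820557-61821872) had 421, 447, 311 and 322 CPM, 870, 272, 687 and 340 CPM, and 305, 310, 853 and 507 CPM in the same order. Mice 1 and 3 of 10CBD and mouse 3 of 20CBD, all of low mitochondrial share, were the highest for both genes. Their anchor Rplp0 (chr5:115694515-115701793) had 390, 365, 325 and 367 CPM, 402, 293, 372 and 335 CPM, and 343, 309, 543 and 376 CPM, with mouse 3 of 20CBD alone set apart. The log2 fold changes of Rplp2 were 0.66 (SE 0.41), 0.44 (SE 0.41) and -0.22 (SE 0.41). With the filter on low counts and no covariate, none passed the test (lowest adjusted p 0.843 by edgeR).

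Rpsa (chr9:119956755-119962787) behaved like Rplp1. It had 598, 677, 500 and 562 CPM in Control, 1007, 396, 787 and 459 CPM in 10CBD and 435, 464, 1368 and 663 CPM in 20CBD. All 4 libraries of low mitochondrial share were above all other 8 libraries. The same division without overlap was seen for Rpl37a, Rps15 and Rps9, and in the other direction for genes that included Rpl31, Rpl15 and Rpl5. Each direction held 4.44% of the 90 genes, below the 6.29% and 6.65% of all genes. Rpl31 (chr1:39406884-39413938) had 148, 61.9, 136 and 118 CPM in Control, 67.6, 122, 79.4 and 132 CPM in 10CBD and 156, 167, 59.7 and 120.3 CPM in 20CBD, so that its 4 lowest mice were the 4 highest of Rpsa. Rpl37a and Rpl31, picked after their values were seen, encode parts of the same subunit and stood on opposite sides of this division. The part of library quality in this was not tested.

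The number of calls also differed once the mitochondrial share was in the fit, and the cause was not tested. With that share as a covariate, edgeR called 0, 16 and 2 of the 90 genes in the 3 comparisons, beside 0.0874%, 8.08% and 0.361% of all genes. The 16 genes, all higher in 20CBD than in Control, included Rpl8, Rpl18, Rpl26, Rpl36, Rpl37a, Rplp1, Rplp2, Rps9, Rps10, Rps26, Rps27, Rps27a, Rps29 and Rpsa, with adjusted p-values from 0.0291 to 0.0879 by edgeR. Rpl37a had the lowest (log2 fold change 0.65, SE 0.15), and Rpl36 was also called against 10CBD (log2 fold change 0.66, adjusted p = 0.0914 by edgeR). In that fit 5, 37 and 48 of the 90 genes had an unadjusted p under 0.05, where 7.55%, 21.3% and 15.0% of all genes did. With low read retention as a factor instead, edgeR called 0 of the 90 genes in each comparison (0.0233%, 0.932% and 0.00583% of all genes), and 9, 9 and 38 of them had an unadjusted p under 0.05, beside 7.09%, 10.9% and 10.4% of all genes. Without a filter on low counts, 4, 4 and 6 were called, beside 0.827%, 1.04% and 0.640% of all genes. Rpl36al was among them in each comparison, and Rps27rt and Rpl10-ps3 in both comparisons of 20CBD. Rplp2 (log2 fold change 0.63, adjusted p = 0.0283 by edgeR) and Rps10 (1.11, adjusted p = 0.00137 by edgeR) were among those in 10CBD against Control.

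**Figure D3:**
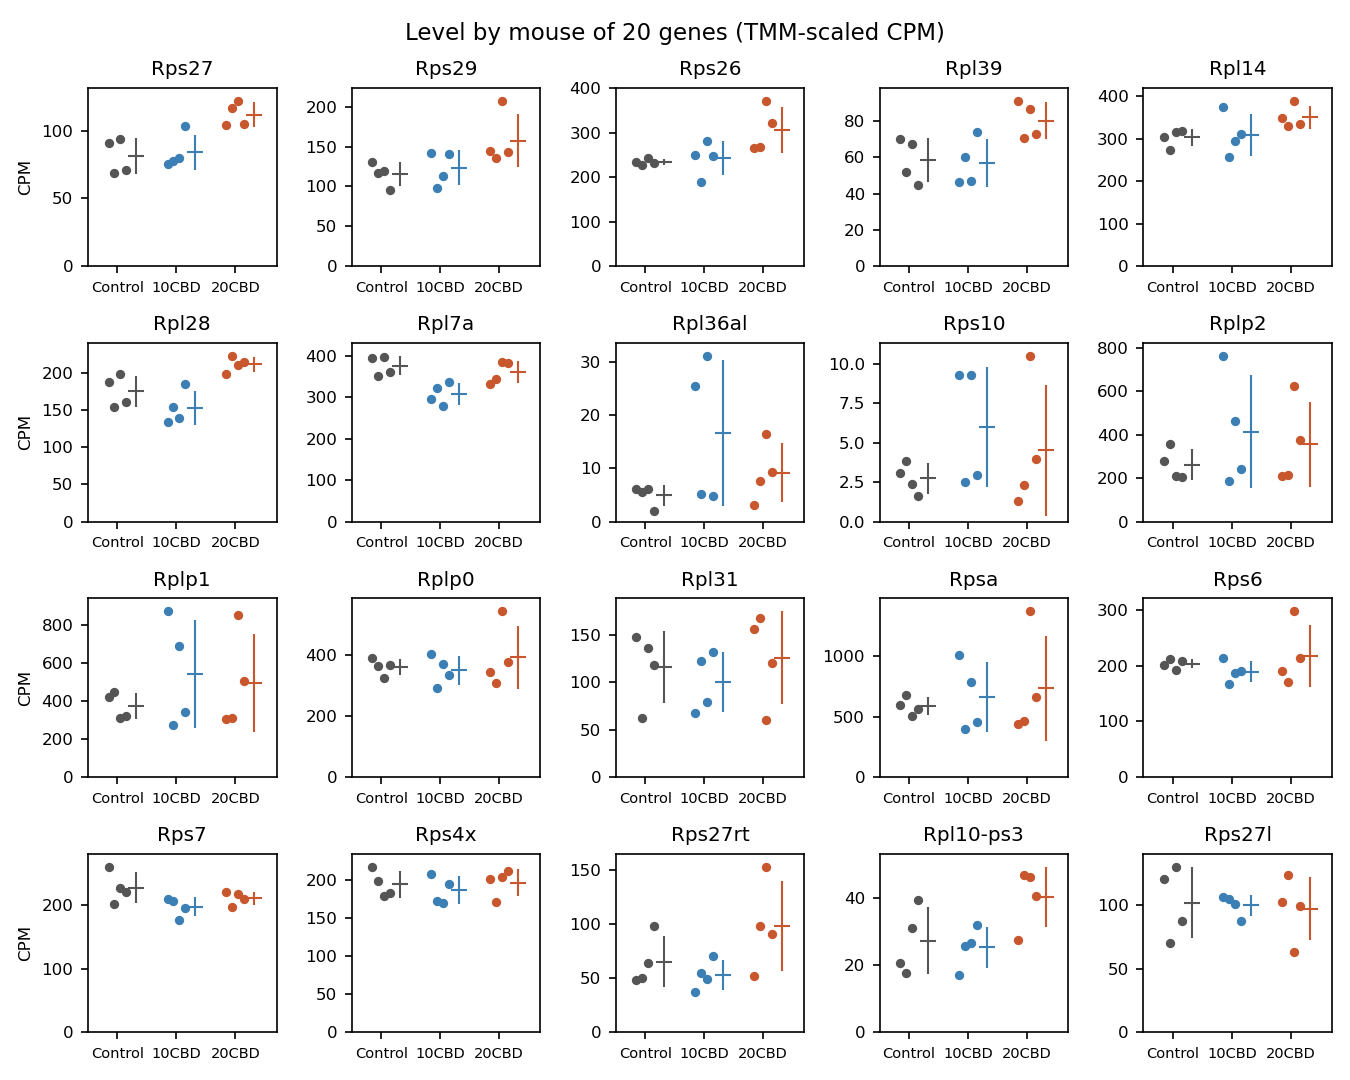
Level of 20 of the genes in each mouse (points, TMM-scaled CPM, each panel from 0), with the group mean and SD beside them. Rps27 and Rpl28 show all 20CBD mice above all others, Rpl7a shows all 10CBD mice below Control, and Rplp1, Rplp2 and Rpsa show 1 to 3 high mice in the treated groups.

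Per kb of coding sequence, 5 of the 6 paralogs stood below their standard counterparts, and Rps27l, at 396 CPM beside 366 CPM for Rps27, did not. Rps27l (chr9:66853340-66856808), a p53-inducible counterpart of Rps27, had 121, 70.3, 130 and 87.6 CPM in Control, 107, 105, 101 and 87.8 CPM in 10CBD and 103, 124, 63.7 and 99.2 CPM in 20CBD. The groups overlapped fully and the log2 fold changes were -0.03, -0.07 and -0.04, unlike the values of Rps27 itself, although the difference between the genes was not tested. Rpl7l1, a nucleolar protein of ribosome assembly, had group means of 74.8 ± 7.09, 76.8 ± 4.87 and 73.9 ± 6.69 CPM (SD, n = 4) and 1 of the 4 smallest spreads of the 90 genes. Its counterpart Rpl7, a 60S protein, had 393 ± 46.9, 364 ± 14.7 and 379 ± 56.9 CPM.

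Rpl3l, the muscle form of Rpl3, stood at 5.22 CPM per kb of coding sequence over the 12 mice, beside 352 CPM for Rpl3. Rps4l stood at 12.9 CPM per kb beside 244 CPM for Rps4x, and Rps4x (218, 199, 179 and 183, then 209, 173, 171 and 195, then 201, 171, 204 and 212 CPM by mouse, not per kb) showed complete overlap of the groups. Rpl22l1, which can replace Rpl22, had group means of 20.0 ± 4.62, 16.2 ± 4.33 and 18.5 ± 1.76 CPM (SD, n = 4), beside 276 ± 24.1, 281 ± 47.1 and 323 ± 94.3 CPM for Rpl22. Rpl10, the counterpart of Rpl10l, was at 175 ± 27.7, 159 ± 8.63 and 186 ± 21.0 CPM, and Rpl36a at 206 ± 19.2, 179 ± 20.8 and 239 ± 33.4 CPM.

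Rpl36al and Rps10 gave the largest fold changes and the least reliable ones. Rpl36al (chr12:69228230-69231234), a close relative of Rpl36a, had 6.17, 5.49, 6.09 and 1.96 CPM in Control, 25.5, 5.15, 31.1 and 4.87 CPM in 10CBD and 3.10, 7.66, 16.5 and 9.43 CPM in 20CBD. Rps10 (chr17:27849390-27855643), a 40S protein near the mRNA entry, had 3.11, 3.86, 2.37 and 1.63 CPM, 9.32, 2.51, 9.31 and 2.93 CPM, and 1.29, 2.33, 10.5 and 3.95 CPM. For both genes the high mice were mice 1 and 3 of 10CBD and mouse 3 of 20CBD, and the groups overlapped. In 10CBD against Control the log2 fold change was 1.76 (SE 0.59, adjusted p = 0.812 by edgeR, exact permutation p = 0.286) for Rpl36al and 1.14 (SE 0.56, adjusted p = 0.870) for Rps10. With low read retention as a factor, that of Rps10 was -0.09.

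The fold changes of the 6 retrocopies went both ways. With the filter on low counts edgeR called 0 of the 6, and without it Rps27rt, Rpl10-ps3, Rpl9-ps6 and Rpl35rt were each called in at least 1 comparison. The medians were -0.12, 0.50 and 0.39, with 2, 5 and 4 of the 6 above 0. Rps27rt (chr9:114811434-114811807) had 48.3, 50.4, 63.6 and 98.5 CPM in Control, 36.8, 55.0, 49.1 and 70.5 CPM in 10CBD and 52.1, 97.6, 153 and 91.0 CPM in 20CBD. Its log2 fold change was 0.59 against Control (SE 0.29, adjusted p = 0.615 by edgeR) and 0.90 against 10CBD (SE 0.29, adjusted p = 0.758), with overlap in both. Rpl10-ps3 had 20.7, 17.6, 31.1 and 39.4 CPM, 17.1, 25.8, 26.4 and 31.9 CPM, and 27.4, 46.8, 46.1 and 40.4 CPM in the same order, a log2 fold change of 0.56 against Control (adjusted p = 0.560 by edgeR). For Rpl9-ps6 it was 0.58 against 10CBD, while Rpl27rt, with group means of 0.670, 1.01 and 0.689 CPM, had -0.58 there, and Rpl35rt had 0.63 in 10CBD against Control and -0.08 in 20CBD against 10CBD. Processed pseudogenes named after ribosomal proteins, 134 in all, had medians of 0.18, 0.33 and 0.17, and how reads were divided between parent genes and copies was not tested.

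In 20CBD against 10CBD the lowest log2 fold changes were -0.87 for Rpl36al, -0.58 for Rpl27rt, -0.43 for Rps10 and -0.22 for Rplp2. In 10CBD against Control they included -0.48 for the retrocopy Rps23rg1 and -0.35 for Rpl15. In 20CBD against Control they were -0.28 for Rps23rg1, -0.13 for Rpl15, -0.11 for Rpl22l1 and -0.11 for Rps7. Apart from retrocopies, Rpl35 had the highest log2 fold change in 20CBD against 10CBD, 0.55 (SE 0.20, adjusted p = 0.758 by edgeR), and its coding sequence is 1 of the 8 with antisense exons.

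Other genes were described for well-known roles outside or beside translation. Of these, Rps27a was among the genes called in 20CBD against Control with the mitochondrial share as a covariate (adjusted p = 0.0602 by edgeR). Rps6 (chr4:86748406-86775674), the phosphorylation target of the S6 kinases, had 202, 213, 193 and 208 CPM in Control, 214, 167, 186 and 190 CPM in 10CBD and 191, 171, 297 and 214 CPM in 20CBD. Mouse 3 of 20CBD was highest, the groups overlapped, and the log2 fold changes were -0.11, 0.10 and 0.21. The last of these became 0.02 without mouse 3 of 20CBD. Rpl5 and Rpl11, which bind Mdm2 with 5S RNA and so stabilise p53, had 418 ± 38.6, 391 ± 34.5 and 430 ± 66.4 CPM and 259 ± 28.6, 254 ± 23.3 and 284 ± 36.4 CPM (SD, n = 4). Rps3, which also acts in DNA repair, had 331 ± 30.5, 309 ± 15.7 and 356 ± 50.1 CPM. Rps19, the gene most often mutated in Diamond-Blackfan anaemia, had 178 ± 33.3, 159 ± 11.05 and 197 ± 14.4 CPM, and its binding partner Rps19bp1 12.5 ± 2.09, 14.3 ± 3.71 and 14.2 ± 4.67 CPM. Rps27a, made as a fusion with ubiquitin, had 113 ± 21.9, 135 ± 36.3 and 137 ± 32.3 CPM. Rpl41 had 244 ± 58.2, 316 ± 125 and 284 ± 62.7 CPM, and Rpl13a, at 10.9 ± 2.31, 11.1 ± 1.46 and 12.2 ± 1.11 CPM, was among the genes whose coding sequence another gene covers.

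The spread between mice was measured as the SD of log2 CPM around the group means. Its median over the 90 genes was 0.25, beside 0.29 for all genes and 0.21 for 1659 other genes at or above the lower quartile of their mean log2 CPM, with no upper limit. The median SD within a group was 0.20 in Control, 0.24 in 10CBD and 0.28 in 20CBD (0.22, 0.28 and 0.29 for all genes), so that the groups stood in the same order for both. The largest spreads were those of Rpl36al (1.098), Rps10 (0.97) and Rplp2 (0.72). The smallest were those of Rpl7a (0.11), Rps7 (0.12), Rpl7l1 (0.12) and Rps4x (0.13). Rps7, a 40S protein, had 260, 201, 227 and 220 CPM in Control, 210, 206, 177 and 195 CPM in 10CBD and 220, 197, 216 and 209 CPM in 20CBD, with mouse 3 of 20CBD in the middle of its group.

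**Figure D4:**
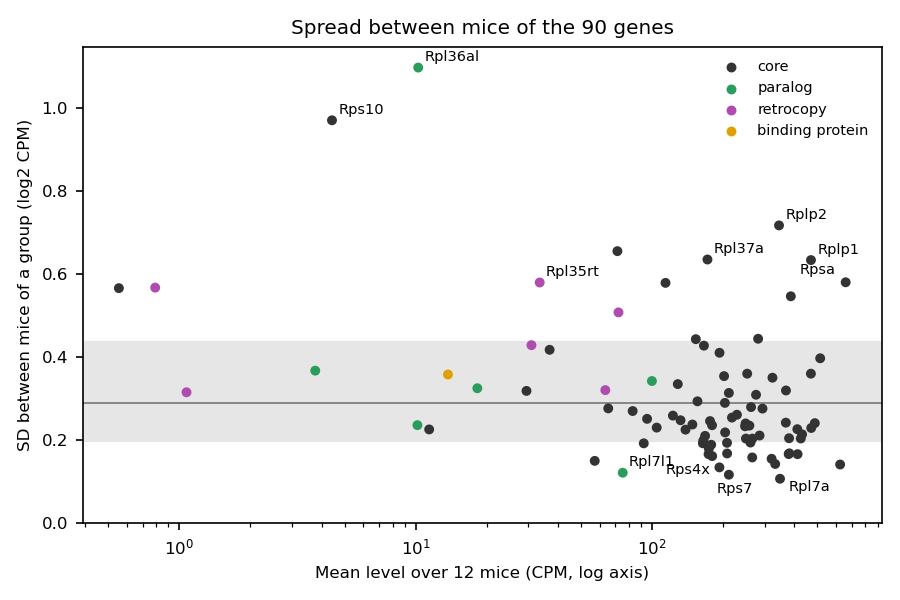
SD between mice of a group (log2 CPM) of each of the 90 genes against its mean level over 12 mice (CPM, log axis), with the median (line) and quartiles (band) of all 17163 genes tested. Rpl36al and Rps10 stand highest at 1.098 and 0.97, whereas Rplp1, Rplp2 and Rpsa combine a high level with a wide spread.

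The genes moved together only in part. Over the 12 libraries, the median Pearson correlation between pairs of the 90 genes in their deviations from the group means was 0.29 (0.38 among the 77 standard genes, 0.00 among all genes), and 33.06% of pairs were negative. For deviations from each gene's mean over the 12 mice, differences between groups included, the first component held 54.12% of the variance and the second 19.23%. Rps18, Rpl11 and Rps29 had the highest mean correlation with the others (0.44, 0.44 and 0.43), and Rpl31 and Rpl35 were among the lowest (-0.22 and -0.14). Some libraries held the extreme values of many genes. Mouse 3 of 20CBD had the highest level of the 12 in 45 of the 90 genes, beside 18.38% of all genes, and mouse 2 of 10CBD the lowest in 28 (31.11%), beside 6.58% of all genes. Mouse 4 of Control had the lowest in 19 (21.11%), beside 10.55% of all genes. Outside the group, the 5 genes most alike by mean correlation with the 90 were Mrps33 (0.45), Mbd1 (0.45), Atp5me (0.45), Ppdpf (0.44) and Tsc22d3 (0.44), over the same 12 libraries and with their depth in common.

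**Figure D5:**
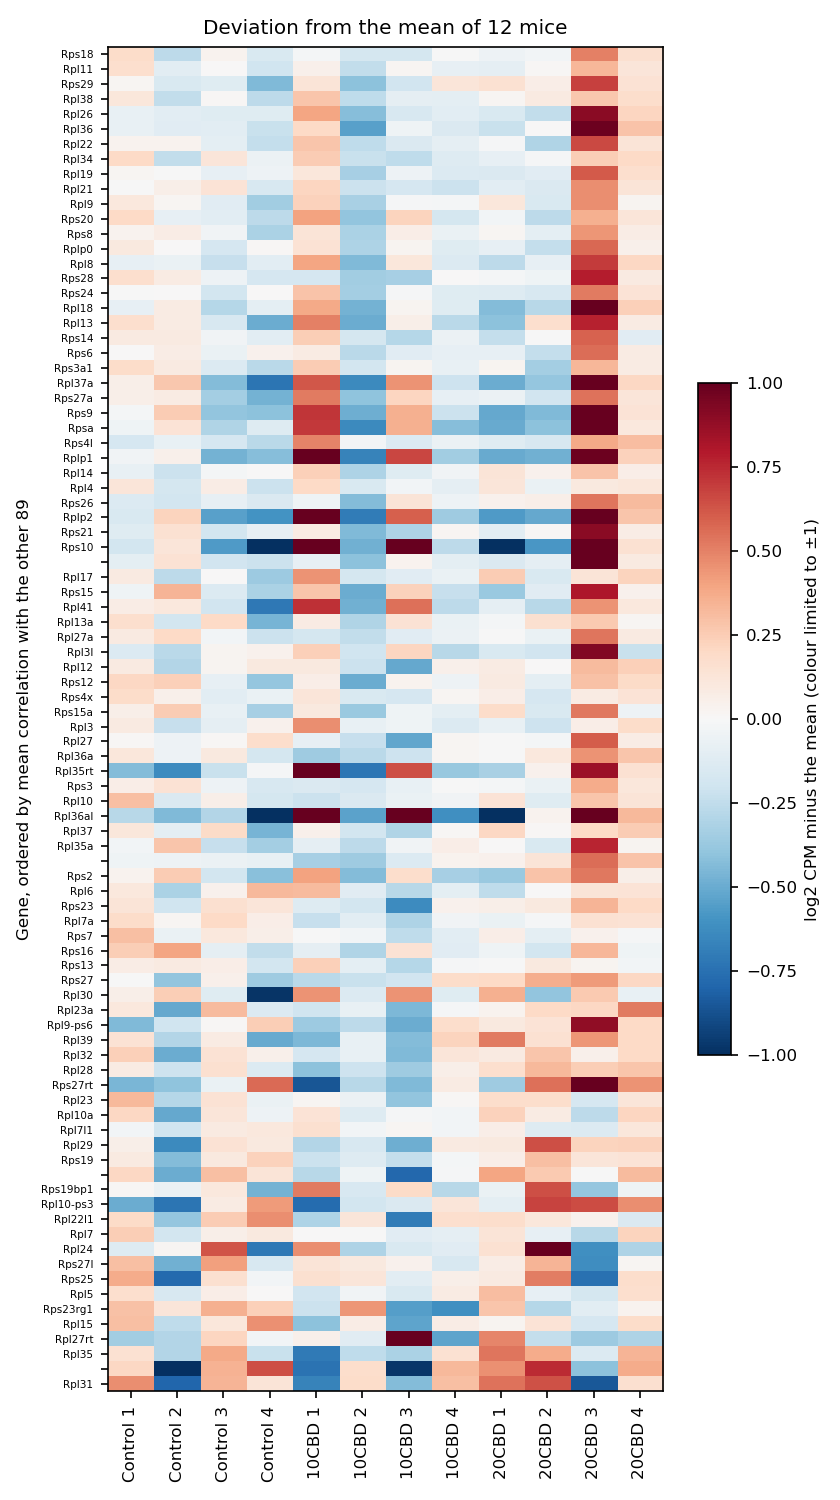
Deviation of log2 CPM from the mean of 12 mice for each of the 90 genes, ordered from the highest to the lowest mean correlation with the other 89 (colour limited to ±1, with some rows unlabelled). Most rows are red in mouse 3 of 20CBD and blue in mouse 2 of 10CBD, while rows at the bottom, such as Rpl31, show the opposite in mouse 3 of 20CBD.

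Other genes of translation and its regulators were set beside all genes. Of 22 elongation factors and other TOP genes, 20 were tested and 0 were called by edgeR in any comparison, with medians of 0.05, 0.10 and 0.06 and 15, 17 and 14 of the 20 above 0. Eif3f, a subunit of an initiation factor, was the 1 gene of these with an unadjusted p under 0.05 (log2 fold change 0.64 in 20CBD against Control, adjusted p = 0.499 by edgeR). The 34 genes of ribosome biogenesis and RNA polymerase I had medians of 0.04, -0.06 and -0.06 with 0 called, and 0, 3 and 0 of the 34 with an unadjusted p under 0.05, beside 5.67%, 8.45% and 6.31% of all genes. The 78 mitochondrial ribosomal proteins had medians of -0.00, 0.04 and 0.08, and 90 nuclear subunits of oxidative phosphorylation -0.02, 0.13 and 0.12, with 0 called in both lists. Above 0 were 38, 45 and 52 of the former and 41, 61 and 59 of the latter.

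Among 24 genes of the mTORC1 and LARP1 pathway, 1 was called, in 20CBD against Control, where 0.303% of all genes were. Ddit4 (REDD1), a stress-induced inhibitor of mTORC1, rose in 20CBD against Control from 12.2 ± 3.42 to 26.1 ± 1.45 CPM (SD, n = 4), a log2 fold change of 1.09 (SE 0.23, adjusted p = 0.0849 by edgeR). It stood at 15.1 ± 5.39 CPM in 10CBD and was not called against it (log2 fold change 0.79, adjusted p = 0.758). The pathway as a whole had medians of -0.06, -0.04 and 0.03. Eif4ebp1, the repressor of cap-dependent translation downstream of mTORC1, had 14.4 ± 1.44, 11.8 ± 1.19 and 17.98 ± 3.35 CPM (log2 fold change 0.32 in 20CBD against Control, adjusted p = 0.578 by edgeR), and Castor1, an arginine sensor, 6.68 ± 1.59, 7.26 ± 1.21 and 10.3 ± 3.53 CPM.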

How the data were processed

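Kidney poly(A) RNA of 12 mice, 1 library per mouse, was sequenced with a directional kit. After trimming with Flexbar, the authors aligned reads to GRCm39 in STAR (2.7.5c) and counted them with htseq-count (1.99.2). The deposited files hold raw counts per Ensembl gene. The annotation release, the strand setting and the use of molecular identifiers are not given in the sources used here. Rows that summarise uncounted reads were left out of all totals. Ambiguous reads were 4.72% to 5.29% and reads without a feature 12.1% to 19.9% of the sum of these 2 kinds and the reads on genes. Reads that were not unique were 10.7% to 17.4% of all listed reads except those not aligned. Symbols, kinds of gene and lengths came from GENCODE vM39, which matched 99.02% of the identifiers. The reference transcript was the shortest with a consensus coding sequence, or the Ensembl canonical one.

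Genes kept by filterByExpr (17163) were tested with edgeR (4.0.16, R 4.3.3) by the quasi-likelihood test with TMM scaling and 1 mean per group over all 12 libraries. P-values were adjusted over all genes by the Benjamini-Hochberg method and called under 0.1, the threshold of the study. The SE was derived from the log2 fold change and its F value. CPM values of single genes are TMM-scaled, and log2 CPM used a prior count of 2. The summed levels of cell type markers and the level given for 3 counts are per 1000000 counts on genes, without that scaling. Single genes were also compared by two-sided exact permutation tests, for which 4 mice against 4 give 70 arrangements. Scripts were tested on simulated data. Groups came from the sample labels, and p-values measure the spread between mice kept in 1 experiment.

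The genes and lists were chosen with earlier results of these data known. Genes named with values were those called, the 4 highest and 4 lowest fold changes in each comparison, the 5 highest levels per kb of transcript, the 4 largest and 4 smallest spreads, the paralogs with their counterparts, and 13 genes of known roles. A few genes that meet these rules are not reported here by name, and stay in all counts and medians. Genes whose groups did not overlap, and genes listed in the covariate fit or the mitochondrial division, were named after their values were seen. Alternatives were RLE and upper-quartile scaling, DESeq2 (1.42.0), no filter or at least 10 counts in every library, only the 2 groups compared, a replicate block, low read retention or the mitochondrial share as covariates, removal of mitochondrially encoded and ribosomal RNA genes, a threshold of 0.05, and leaving out each library.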

Additional observations from a re-analysis of the deposited data

Results flagged for a closer look

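Of 66 sets of 4 mice tested for a library far from the other 3, 2 stood out, and chance gives about 1 in 20. For Rps29, mouse 3 of 20CBD had a log2 CPM of 7.70 beside 7.09 to 7.17 in the others of its group, so that the gap to the next mouse took 0.86 of the range of the group. For Rpl36al, mouse 4 of Control had a log2 CPM of 1.04 beside 2.48 to 2.65, a gap of 0.896 of the range.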

How the results depend on the processing

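Over the alternatives, 0 of the 90 genes were called in all 3 comparisons except in 2 fits: without a filter on low counts edgeR called 4, 4 and 6 (0.827%, 1.04% and 0.640% of all genes), and with the mitochondrial share as a covariate 0, 16 and 2. The cause was not tested. Without each library in turn, the median log2 fold changes ranged from -0.10 to 0.01, from 0.06 to 0.24 and from 0.10 to 0.27, and under the other settings from -0.15 to -0.04, from 0.08 to 0.23 and from 0.18 to 0.30. Without each library in turn, the differences in the share of counts ranged from -0.0909 to 0.145, from -0.0378 to 0.301 and from -0.0672 to 0.271 percentage points, and under the other settings from -0.162 (without the 4 libraries of low mitochondrial share) to 0.0281, from -0.0122 to 0.292 and from 0.146 to 0.318. The replicate block gave medians of -0.04, 0.18 and 0.18 with 0 calls. The replicate numbers do not pair the mice: same-numbered libraries had correlations of their deviations from -0.33 to 0.32, with 4 of 12 over 0.1, and 3 of 12 libraries correlated best with their own number. Of 527 refits of 22 fold changes of single genes, 496 kept direction and side of the threshold, 13 came to pass it and 18 reversed. With low read retention as a factor, reversals were Rpl35rt (-0.12), Rplp2 (-0.23) and Rps10 (-0.0902) in 10CBD against Control, Rps10 (-0.0744) in 20CBD against Control, and Rplp2 (0.21) and Rps10 (0.0159) in 20CBD against 10CBD. With the mitochondrial share, they were Rpl36al (0.0036), Rplp2 (0.45) and Rps10 (0.30) in 20CBD against 10CBD. Without the 4 libraries of low mitochondrial share, they were Rpl35rt (-0.33) and Rplp2 (-0.11) in 10CBD against Control, and Rpl27rt (0.40), Rpl36al (0.43) and Rplp2 (0.31) in 20CBD against 10CBD. Leaving out 1 library gave -0.26 to 0.0028 for Rpl22l1 (reversed without Control mouse 4) and -0.12 to 1.02 for Rps10 (reversed without 20CBD mouse 3) in 20CBD against Control, and -0.85 to 0.13 for Rpl27rt (reversed without 10CBD mouse 3) and -0.64 to 0.26 for Rplp2 (reversed without 10CBD mouse 1) in 20CBD against 10CBD. Rpl24 and the lowest retrocopies had too few counts for a firm value.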
